A study of Mus musculus with 5 samples.

Results

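A set of 10 genes of eicosanoid synthesis was followed in messenger RNA of mouse visceral fat: the cyclooxygenases Ptgs1 and Ptgs2, the prostanoid synthases Ptges, Ptgis, Ptgds and Tbxas1, the leukotriene genes Alox5 and Alox5ap, and the lipoxygenases Alox12 and Alox15. They were taken by name from a table of 78334 gene identifiers, and all 10 were among the 24779 genes with enough counts to be tested. They were chosen by their CPM, a gene's count relative to its library's total, in these same 5 libraries, so their levels and differences are given as a description and without a p. Male C57BL/6 mice, an inbred strain, entered the study at 8 weeks of age. The resveratrol group, with 2 libraries, was fed high-fat food (60% of calories as fat) over 8 weeks and was then dosed daily with resveratrol, a plant polyphenol, at 2.25 mg/kg through a gastric tube over 28 days, starting at 16 weeks of age. The obesity group, with 2 libraries, had the same diet and then vehicle, and the control group, with 1 library, had standard chow and vehicle. Tissue was collected after 12 weeks. Whether the 2 libraries of a group are from different mice is not stated in the labels, so p-values measure only the spread between these libraries, which may be technical. The control has no replicate. Total counts were 21646089 and 26486024 in resveratrol libraries 1 and 2, 19540961 and 21690850 in obesity libraries 1 and 2, and 27026597 in the control library.

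Eicosanoids are short-lived lipid signals made from arachidonic acid that phospholipases free from membranes. Cyclooxygenases turn it into prostaglandin H2, which terminal synthases convert to prostaglandins E2 and D2, prostacyclin or thromboxane, and lipoxygenases turn it into leukotrienes and hydroxy fatty acids. In fat, prostaglandin E2 restrains lipolysis through the receptor encoded by Ptger3, and leukotriene genes are known mainly from macrophages and other leukocytes.

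The libraries did not carry the same tissue transcripts, and this touches every gene below. The summed level of 10 adipocyte markers was 5565 and 23586 CPM (counts relative to the library's total, scaled by TMM, the trimmed mean of M-values) in resveratrol libraries 1 and 2, 21834 and 23975 CPM in obesity libraries 1 and 2, and 349 CPM in the control library. Relative to its obesity mean, the median adipocyte marker stood at 21.2% in resveratrol library 1, 103% in resveratrol library 2 and 1.14% in the control library. Resveratrol library 1 instead held 46143 CPM of 8 smooth muscle markers, and the control library 62576 CPM of 11 epididymis markers, genes of the duct that stores sperm. The label of visceral adipose tissue was matched by adipocyte markers in resveratrol library 2 and both obesity libraries, and less so in resveratrol library 1 and the control library. Values are given for every library for this reason.

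Ptgs2 and Ptges were both high in resveratrol library 1, so the 250 bases before their RefSeq start are shown, on build GRCm38.p6. This is not the build of the counts, GRCm39, and a window was found for 7 of the 10 genes. The Ptgs2 window lies at chr1:150099781-150100030 on the plus strand and the Ptges window at chr2:30903298-30903547 on the minus strand. Both are printed 5′ to 3′ along the gene, and capitals mark the GC box GGGCGG on either strand.
Ptgs2: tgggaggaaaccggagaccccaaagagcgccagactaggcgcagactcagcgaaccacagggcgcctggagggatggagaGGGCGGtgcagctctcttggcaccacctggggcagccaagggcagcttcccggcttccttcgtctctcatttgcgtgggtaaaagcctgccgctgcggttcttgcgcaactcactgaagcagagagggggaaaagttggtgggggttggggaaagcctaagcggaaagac
Ptges: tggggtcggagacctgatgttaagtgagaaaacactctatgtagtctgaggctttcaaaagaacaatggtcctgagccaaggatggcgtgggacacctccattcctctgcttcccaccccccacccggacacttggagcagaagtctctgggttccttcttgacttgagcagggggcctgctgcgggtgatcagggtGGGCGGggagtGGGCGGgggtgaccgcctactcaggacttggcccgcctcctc
The letters GGGCGG, read on both strands, begin 170 bases before the Ptgs2 start, and 53 and 42 bases before the Ptges start. They occur in 35.7% of all 32851 RefSeq windows, each of 300 bases with 50 after the start. Just after the Ptgs2 start, at chr1:150100036-150100059 on the plus strand, the core hexamer of the cAMP response element, TGACGT on the minus strand, overlaps an E-box, CACGTG. Capitals mark both in the next line.
Ptgs2 site: caccactACGTCACGTGgagtccg
Counted from this RefSeq start, the hexamer begins at base 13 and the E-box at base 17. Whether transcripts in these libraries begin at that start was not examined. Of all windows, 7.51% hold the hexamer and 7.15% the E-box. Neither is in the Ptges window. Also searched on both strands were the TATA box TATAAA, the CCAAT box and the full cAMP response element TGACGTCA. So were the AP-1 motif TGANTCA and the NF-kappa-B motif, which is named here without its pattern. None of these motifs has a match in either window, which says only that their letters are absent there. Of all windows, 13.6%, 37.4%, 1.79%, 7.81% and 8.46% hold them in that order.

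Ptgs2 (ENSMUSG00000032487) encodes COX-2, the inducible cyclooxygenase. It stood at 1500.2 and 7.04 CPM in resveratrol libraries 1 and 2, at 0.783 and 0.476 CPM in obesity libraries 1 and 2, and at 4.60 CPM in the control library. These levels rest on 33023 and 181 counts in the resveratrol libraries, 15 and 10 in the obesity libraries, and 132 in the control library. Both resveratrol libraries lay above both obesity libraries, but resveratrol library 1 was 213 times resveratrol library 2, and the mean of 754 ± 1056 CPM (SD, n = 2) describes neither. In the obesity group the mean was 0.629 ± 0.217 CPM (SD, n = 2). The fitted log2 difference was 10.22 (SE 3.06) for resveratrol over obesity and -2.86 (SE 2.55) for obesity over control.

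Ptgs1 (ENSMUSG00000047250) encodes COX-1, the form most tissues carry at rest. It had 221 and 39.2 CPM in resveratrol libraries 1 and 2, 32.8 and 12.5 CPM in obesity libraries 1 and 2, and 75.6 CPM in the control library. The resveratrol and obesity groups did not overlap, yet resveratrol library 2 lay close to obesity library 1, and the control library lay between the resveratrol libraries. The log2 difference was 2.53 (SE 1.03) for resveratrol over obesity and -1.74 (SE 1.15) for obesity over control. Per kilobase of exon, Ptgs2 was 5.75 and 0.152 times Ptgs1 in resveratrol libraries 1 and 2, 0.0203 and 0.0324 times in the obesity libraries, and 0.0517 times in the control library. COX-2 transcripts thus exceeded COX-1 transcripts in 1 of the 5 libraries.

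**Figure D1:**
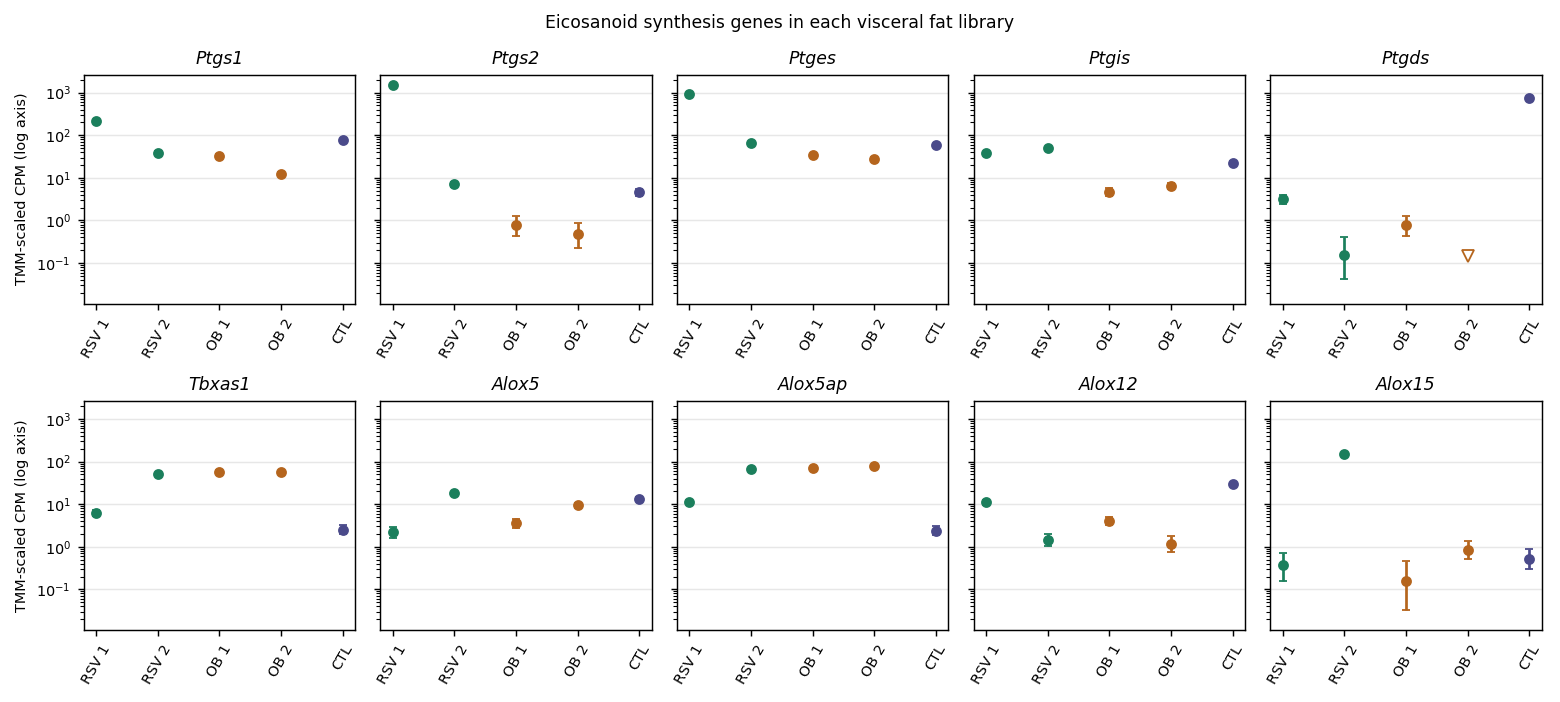
Each panel plots 1 gene's TMM-scaled CPM on a log axis in resveratrol libraries 1 and 2 (RSV, green), obesity libraries 1 and 2 (OB, brown) and the control library (CTL, blue), with exact 95% Poisson intervals for counting error; an open triangle stands at the level of 3 counts where the count is 0. Ptgs2 and Ptges peak in resveratrol library 1, Alox15 in resveratrol library 2 and Ptgds in the control library, while Tbxas1 and Alox5ap lie between 51.4 and 77.9 CPM in 3 libraries and at or below 11.2 CPM in the other 2.

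Ptges (ENSMUSG00000050737), the inducible microsomal synthase that makes prostaglandin E2 from the product of COX-2, followed the same order. It reached 914 and 64.9 CPM in resveratrol libraries 1 and 2, against 34.2 and 28.3 CPM in obesity libraries 1 and 2 and 58.5 CPM in the control library. Both resveratrol libraries were above both obesity libraries, and resveratrol library 1 was 14.1 times resveratrol library 2. On the log2 scale the difference was 3.97 (SE 1.38) for resveratrol over obesity and -0.91 (SE 1.46) for obesity over control.

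Some genes of arachidonic acid release and of prostaglandin transport and breakdown were high in the same library, and others were not. Hpgd, the dehydrogenase that inactivates prostaglandins, had 880.1 and 31.9 CPM in resveratrol libraries 1 and 2, 63.8 and 41.9 CPM in the obesity libraries, and 24.0 CPM in the control library. Slco2a1, the prostaglandin transporter, had 1518 and 31.2 CPM in the resveratrol libraries, 12.4 and 79.9 CPM in the obesity libraries, and 34.6 CPM in the control library. For Pla2g4a, the cytosolic phospholipase that frees arachidonic acid, the levels were 92.5 and 8.09 CPM in the resveratrol libraries, 8.30 and 9.33 CPM in the obesity libraries, and 10.8 CPM in the control library. All 3 genes were high in resveratrol library 1, and resveratrol library 2 was below at least 1 obesity library for each. Of the 5 genes of transport and breakdown, Ptgr1, a prostaglandin reductase gene, was also above both obesity libraries there, at 155 CPM against 37.5 and 23.3 CPM. Abcc4, a prostaglandin exporter gene, was below both at 11.9 CPM against 22.5 and 14.8 CPM, and so was Ptgr2, another reductase gene, at 21.8 CPM against 33.4 and 46.2 CPM. The 8 genes of arachidonic acid release and re-esterification were also split in resveratrol library 1. Pla2g4a, Pla2g2d, Acsl4 and Mboat7 were above both obesity libraries. Pla2g5, Pla2g6, Pla2g2e and Lpcat3 were below both. Slco2a1, Ptgr1 and Ptgr2 were singled out after their values were seen.

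The smooth muscle list was also high in resveratrol library 1. Its 8 markers, Myh11, Acta2, Cnn1, Tagln, Des, Actg2, Lmod1 and Smtn, summed to 46143 and 442 CPM in resveratrol libraries 1 and 2, 649 and 363 CPM in obesity libraries 1 and 2, and 2339 CPM in the control library. The contractile myosin gene Myh11 alone had 19257 and 34.8 CPM in the resveratrol libraries, 137 and 22.6 CPM in the obesity libraries, and 299 CPM in the control library. In resveratrol library 2 the smooth muscle sum lay between the obesity libraries, while Ptgs2 and Ptges there were above both. No marker of the list was at 0 in any library. The part of smooth muscle in the Ptgs2 and Ptges levels was not tested. In bulk tissue, fewer cells of a type and less RNA per cell cannot be told apart, here and for every gene below. Without resveratrol library 1, the log2 difference for resveratrol over obesity was 3.49 for Ptgs2, 1.07 for Ptges and 0.81 for Ptgs1, against 10.22, 3.97 and 2.53 with it.

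Ptgis (ENSMUSG00000017969) encodes prostacyclin synthase, an enzyme known from vessel walls. Its levels were 37.4 and 49.0 CPM in resveratrol libraries 1 and 2, 4.75 and 6.38 CPM in obesity libraries 1 and 2, and 22.7 CPM in the control library. The resveratrol libraries stood at 673% and 881% of its obesity mean, and the control library at 409%. Of the 10 genes, Ptgis had the smallest SE in all 3 comparisons: the log2 difference was 2.96 (SE 0.33) for resveratrol over obesity, -2.03 (SE 0.36) for obesity over control and 0.93 (SE 0.39) for resveratrol over control. The 8 endothelial markers summed to 238 and 1201 CPM in the resveratrol libraries, 698 and 601 CPM in the obesity libraries, and 186 CPM in the control library, an order unlike that of Ptgis. In resveratrol library 1, Ptgis was above its obesity levels while endothelial and adipocyte marker sums were below theirs and the smooth muscle sum above. The part of these cells in the Ptgis level was not tested. The transcript 1110018N20Rik overlaps Ptgis on the other strand, and its counts were 128 and 106 in the resveratrol libraries, 59 and 60 in the obesity libraries, and 40 in the control library. The strand setting of the counting is not given in the sources used here, so reads of overlapping genes may not be fully separated.

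The prostacyclin receptor gene Ptgir had 5.36 and 17.3 CPM in resveratrol libraries 1 and 2, 8.97 and 8.24 CPM in obesity libraries 1 and 2, and 0.384 CPM in the control library. Its resveratrol libraries lay on either side of the obesity group. Tbxa2r, the thromboxane receptor gene, had 5.22 and 3.77 CPM in the resveratrol libraries, 0.991 and 0.333 CPM in the obesity libraries, and 4.22 CPM in the control library. Both resveratrol libraries were above both obesity libraries, as for Ptgis, with a log2 difference of 2.76 (SE 0.78) that did not pass edgeR's quasi-likelihood test (adjusted p = 0.899).

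Ptgds (ENSMUSG00000015090) encodes the lipocalin-type prostaglandin D synthase, a secreted enzyme known from brain and the male tract. It had 3.13 and 0.156 CPM in resveratrol libraries 1 and 2, 0.783 CPM in obesity library 1, a count of 0 in obesity library 2, and 762 CPM in the control library. The counts behind these were 69 and 4 in the resveratrol libraries, 15 and 0 in the obesity libraries, and 21847 in the control library. For the count of 0 in obesity library 2, the exact 95% Poisson interval reaches 0.176 CPM. The gene was thus high in the control library alone, with a log2 difference of -10.93 (SE 2.59) for obesity over control.

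The epididymis list was high in that library too. Its 11 matched markers summed to 3399 and 0.350 CPM in resveratrol libraries 1 and 2, 18.1 and 0.238 CPM in obesity libraries 1 and 2, and 62576 CPM in the control library. In resveratrol library 1, 3397 of the 3399 CPM were of Crisp1, which encodes an epididymal secreted protein. Of the 11 markers, 9 were at a count of 0 in resveratrol library 2, 9 in obesity library 2 and none in the control library. The part of this tissue in the Ptgds level was not tested. The other prostaglandin D synthase gene, Hpgds, which macrophages and mast cells carry, ran the opposite way, with 7.81 and 28.0 CPM in the resveratrol libraries, 56.4 and 40.0 CPM in the obesity libraries, and 3.77 CPM in the control library. The 8 mast cell markers summed to 121 and 75.4 CPM in the resveratrol libraries, 35.2 and 22.5 CPM in the obesity libraries, and 28.3 CPM in the control library. Kit, a receptor gene of mast cells and other cells, made up 22.7 CPM of the control sum, and Cpa3, Tpsab1, Mcpt4 and Ms4a2 were at 0 there. The median mast cell marker, over the 6 that averaged at least 1 CPM in obesity, was 427% and 255% of the obesity level in resveratrol libraries 1 and 2 and 1.72% in the control library. Like Hpgds that median was low in the control library, and unlike Hpgds it was high in both resveratrol libraries. It does not stand for all 6 markers. In the control library Kit was above its obesity levels of 6.26 and 7.66 CPM. Hdc was also above there, at 5.44 CPM against 2.50 and 2.48 CPM. In resveratrol library 1 Hdc was below both obesity libraries, at 1.73 CPM. Cpa3, Tpsb2, Cma1 and Mcpt4 went with the median in these libraries. The part of mast cells in the Hpgds level was not tested.

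Tbxas1 (ENSMUSG00000029925) encodes thromboxane synthase, a platelet and macrophage enzyme. It had 6.31 and 51.4 CPM in resveratrol libraries 1 and 2, 58.3 and 56.1 CPM in obesity libraries 1 and 2, and 2.51 CPM in the control library. Both resveratrol libraries were below both obesity libraries, but resveratrol library 2 was at 89.8% of the obesity mean and resveratrol library 1 at 11.0%. The fitted log2 difference was -0.99 (SE 1.00) for resveratrol over obesity and 4.51 (SE 1.57) for obesity over control. Hipk2, a kinase gene, overlaps Tbxas1 on the other strand, with 464 and 2437 counts in the resveratrol libraries, 1126 and 3195 in the obesity libraries, and 161 in the control library.

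Alox5ap (ENSMUSG00000060063) encodes FLAP, the membrane protein that hands arachidonic acid to 5-lipoxygenase. Its levels were 11.2 and 66.4 CPM in resveratrol libraries 1 and 2, 69.6 and 77.9 CPM in obesity libraries 1 and 2, and 2.41 CPM in the control library. The order of the libraries was close to that of Tbxas1: resveratrol library 2 was at 90.0% of the obesity mean, resveratrol library 1 at 15.1% and the control library at 3.26%. The log2 difference was -0.93 (SE 0.88) for resveratrol over obesity and 4.94 (SE 1.41) for obesity over control.

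The macrophage list moved with both genes. Its 10 markers summed to 446 and 2923 CPM in resveratrol libraries 1 and 2, 2692 and 2436 CPM in obesity libraries 1 and 2, and 190.3 CPM in the control library, and none was at 0 in any library. Relative to the obesity mean, the median marker was 20.4% in resveratrol library 1, 109% in resveratrol library 2 and 9.34% in the control library. The 8 platelet markers summed to 60.8 and 82.3 CPM in the resveratrol libraries, 76.2 and 100.5 CPM in the obesity libraries, and 49.1 CPM in the control library. Members of that list ran opposite ways. Pf4, a platelet chemokine gene, had 20.9 and 76.7 CPM in the resveratrol libraries, 66.7 and 94.2 CPM in the obesity libraries, and 3.07 CPM in the control library. Itga2b, an integrin gene of platelets, had 38.6 and 3.27 CPM in the resveratrol libraries, 4.28 and 3.43 CPM in the obesity libraries, and 43.7 CPM in the control library. The platelet markers that averaged at least 1 CPM in obesity were 3, Pf4, Itga2b and Treml1. Their median relative to the obesity mean was 26.0% in resveratrol library 1, 84.8% in resveratrol library 2 and 12.0% in the control library. That median does not stand for the list. Where it was low, Pf4 and Treml1 were below both obesity libraries and Itga2b was above both. Treml1 rested there on 7 counts in each library. No likeness of the platelet list to Tbxas1 and Alox5ap is read from it. Gp1bb was at 0 in every library. The part of macrophages and platelets in the Tbxas1 and Alox5ap levels was not tested.

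Alox5 (ENSMUSG00000025701), the 5-lipoxygenase gene itself, did not run with its activating protein. It had 2.18 and 18.1 CPM in resveratrol libraries 1 and 2, 3.60 and 9.47 CPM in obesity libraries 1 and 2, and 13.1 CPM in the control library. The resveratrol libraries lay on either side of the obesity libraries, and the control library was above both obesity libraries. On the log2 scale the difference was 0.63 (SE 1.14) for resveratrol over obesity and -0.999 (SE 1.35) for obesity over control. Per kilobase, Alox5ap was 14.8 and 10.6 times Alox5 in the resveratrol libraries, 55.9 and 23.8 times in the obesity libraries, and 0.532 times in the control library. The 8 neutrophil markers summed to 6.91 and 5.99 CPM in the resveratrol libraries, 8.71 and 8.28 CPM in the obesity libraries, and 34.2 CPM in the control library. Ltf, a lactoferrin gene, made up 33.3 CPM of the control sum, and S100a8, Cxcr2 and Ly6g were at 0 there. S100a8, a calcium-binding protein gene of neutrophils, had 1.14 and 4.12 CPM in the resveratrol libraries and 7.15 and 6.14 CPM in the obesity libraries. Over the 2 neutrophil markers that averaged at least 1 CPM in obesity, the median was 10.8% and 96.3% of the obesity level in resveratrol libraries 1 and 2 and 15.5% in the control library. The part of neutrophils in the Alox5 level was not tested.

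**Figure D2:**
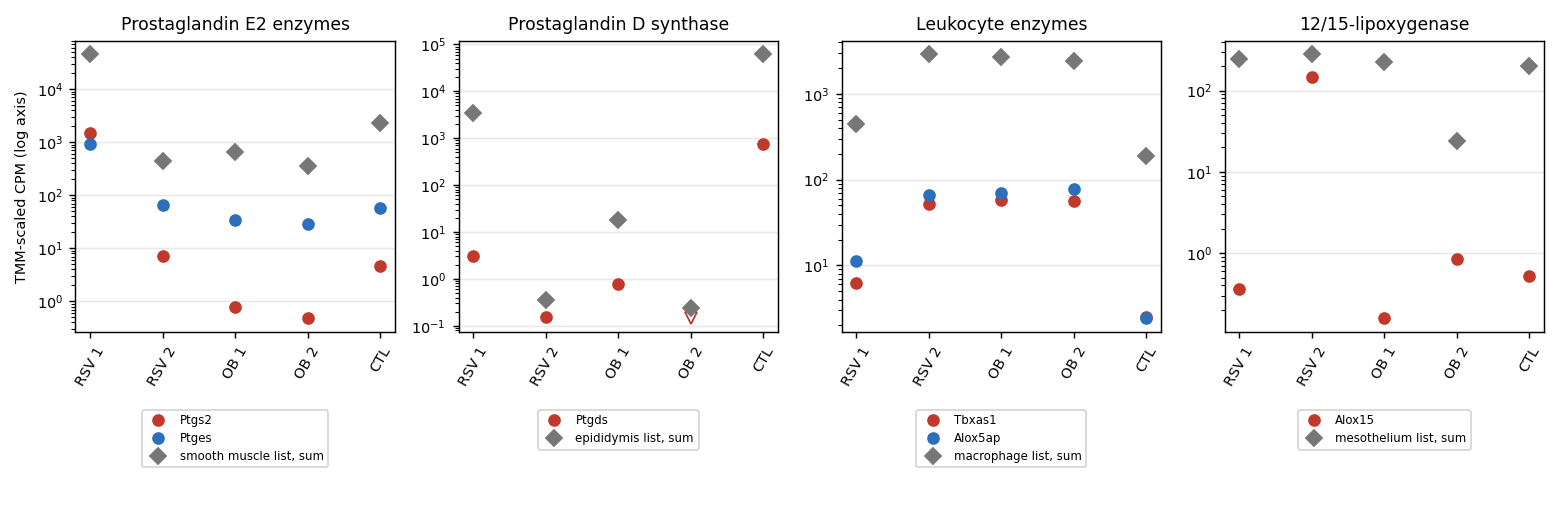
Points show TMM-scaled CPM on a log axis in resveratrol libraries 1 and 2 (RSV), obesity libraries 1 and 2 (OB) and the control library (CTL) for named enzyme genes, and grey diamonds the summed CPM of a marker list; the open triangle is the level of 3 counts where Ptgds had a count of 0. Ptgs2, Ptges and the smooth muscle list share their peak in resveratrol library 1, Ptgds and the epididymis list share theirs in the control library, Tbxas1 and Alox5ap are low where the macrophage list is low, and the mesothelium list sum varies less than Alox15.

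Alox15 (ENSMUSG00000018924) encodes the 12/15-lipoxygenase of mice, known from resident peritoneal macrophages and eosinophils. It had 0.363 and 148 CPM in resveratrol libraries 1 and 2, 0.157 and 0.857 CPM in obesity libraries 1 and 2, and 0.523 CPM in the control library. The counts were 8 and 3797 in the resveratrol libraries, 3 and 18 in the obesity libraries, and 15 in the control library. Resveratrol library 2 was 406 times resveratrol library 1, which lay between the obesity libraries, so the groups overlapped. The fitted log2 difference was 7.16 (SE 2.97) for resveratrol over obesity, and -0.48 without resveratrol library 2.

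Markers of the mesothelium, the cell layer that covers visceral fat, were also high in resveratrol library 2, apart from Krt19 and Upk1b. Of the list, 6 markers averaged at least 1 CPM in obesity, and Bnc1 and Gpm6a did not. Relative to the obesity mean, the median of these 6 was 46.1% in resveratrol library 1, 786% in resveratrol library 2 and 20.1% in the control library. Gpm6a, outside that median, was high in both resveratrol libraries, at 27.9 and 31.5 CPM against 0.522 and 1.43 CPM in obesity. Bnc1 had 0.318 and 9.41 CPM in the resveratrol libraries, against 0.417 and 0.286 CPM in obesity. The summed level of the 8 markers was less distinct: resveratrol libraries 1 and 2 had 244 and 282 CPM, obesity libraries 1 and 2 had 224 and 24.2 CPM, and the control library had 201 CPM. Krt19, a keratin gene of many epithelia, made up most of the sum in resveratrol library 1, obesity library 1 and the control library, at 207, 115 and 122 CPM. In resveratrol library 2 it had 14.4 CPM, between obesity libraries 1 and 2 at 115 and 3.43 CPM. Upk1b had 27.2 CPM there, between 82.5 and 4.00 CPM. The other markers of the list were above both obesity libraries in resveratrol library 2. Among them, Msln had 1.82 and 65.4 CPM in the resveratrol libraries, a count of 0 in obesity library 1, 4.90 CPM in obesity library 2, and 0.349 CPM in the control library. Bnc1 was at 0 in the control library. Macrophage markers were near the obesity level in resveratrol library 2, with a median of 109%, and the 6 eosinophil markers summed to 5.04 and 2.22 CPM in the resveratrol libraries, 1.83 and 1.67 CPM in the obesity libraries, and 0.523 CPM in the control library. Epx, an eosinophil peroxidase gene, made up 4.50 CPM of the sum in resveratrol library 1 and was at 0 in the other 4 libraries, and Ear6 was at 0 in all 5. Ccr3 and Siglecf were the highest eosinophil markers in resveratrol library 2, at 0.817 and 0.895 CPM, against 0.887 and 0.626 CPM in obesity library 1 and 0.952 and 0.524 CPM in obesity library 2. The part of mesothelial cells, macrophages and eosinophils in the Alox15 level was not tested.

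Alox12 (ENSMUSG00000000320), the platelet-type 12-lipoxygenase gene, was highest in the control library. It had 11.0 and 1.48 CPM in resveratrol libraries 1 and 2, 4.02 and 1.19 CPM in obesity libraries 1 and 2, and 29.9 CPM in the control library. Resveratrol library 2 lay between the obesity libraries and resveratrol library 1 above them. The log2 difference was 1.26 (SE 1.17) for resveratrol over obesity and -3.52 (SE 1.38) for obesity over control. Alox12e, the epidermal lipoxygenase gene and a close relative, had 2.95 and 0.0778 CPM in the resveratrol libraries, 0.209 CPM and a count of 0 in obesity libraries 1 and 2, and 5.44 CPM in the control library. Alox12, Alox12e and Alox15 are similar in sequence, and how any reads shared between them were counted was not examined. Alox12e was named after its values were seen. Of the markers given above, the platelet gene Itga2b, the epididymis list, the neutrophil sum and its member Ltf were highest in the control library. Others, such as Pf4 and the neutrophil gene S100a8, were lowest there. The part of these cells in the Alox12 level was not tested.

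**Figure D3:**
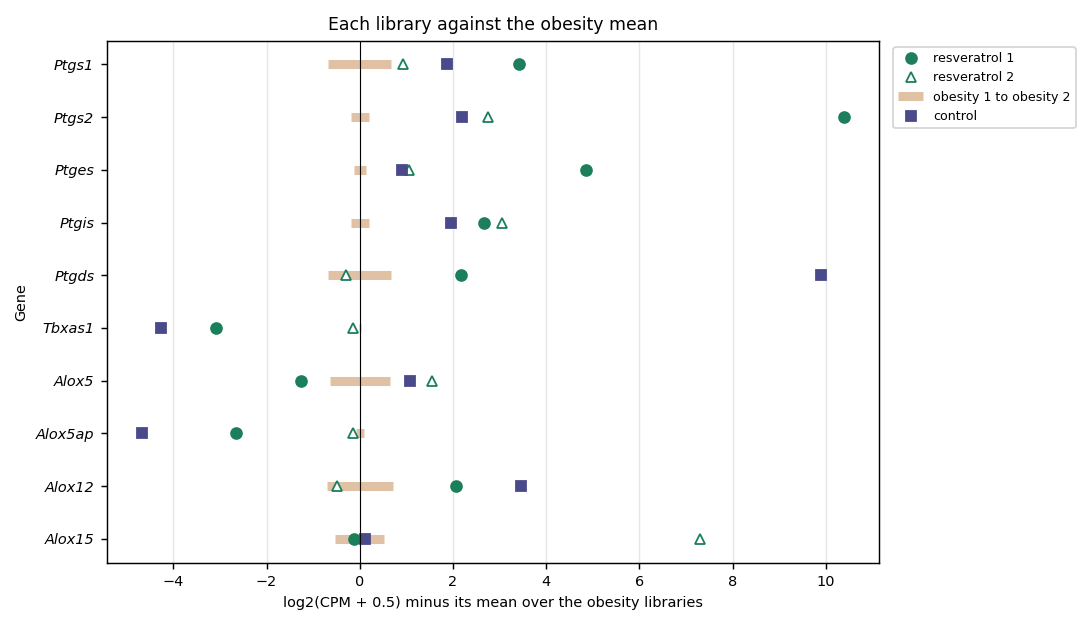
For each gene the horizontal axis gives log2(CPM + 0.5) minus its mean over the obesity libraries, for resveratrol library 1 (filled circle), resveratrol library 2 (open triangle), the control library (square) and the span of the obesity libraries (bar). The resveratrol libraries are close together for Ptgis alone among genes far from the obesity span, at 2.66 and 3.04, and lie far apart for Ptgs2, at 10.39 and 2.75, and Alox15, at -0.13 and 7.29.

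Set in order per kilobase of exon, the leading gene differed between the resveratrol libraries and was the same in both obesity libraries. In resveratrol library 1 Ptgs2 led at 328 CPM per kilobase, ahead of Ptges at 233 and Ptgs1 at 57.0. Resveratrol library 2 was led by Alox15 at 60.2 CPM per kilobase, with Alox5ap at 46.8 and Ptgis at 19.1 behind it. Alox5ap led both obesity libraries at 49.0 and 54.9 CPM per kilobase, and Ptges was next at 8.69 and 7.19. In the control library Ptgds led at 462 CPM per kilobase, ahead of Ptgs1 at 19.5 and Ptges at 14.9. At the low end Alox15 was last in resveratrol library 1, obesity library 1 and the control library, and Ptgds was last in resveratrol library 2 and obesity library 2. Exon lengths came from GENCODE M21 on GRCm38, another build than that of the counts, so neighbours in these orders that differ by little are not separated.

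Over the groups, both resveratrol libraries were above both obesity libraries for 4 of the 10 genes (Ptgs1, Ptgs2, Ptges and Ptgis), where 16.9% of all tested genes did so, and below for 2 (Tbxas1 and Alox5ap), where 16.7% did so. Both obesity libraries were above the control library for 2 genes (Tbxas1 and Alox5ap) and below it for 7, where 40.8% and 48.6% of all tested genes did so. Since these values chose the genes, nothing is read from those counts. The diet comparison and the resveratrol comparison share the obesity libraries, so opposite signs in them are not separate evidence. In resveratrol over control, the log2 differences of the 10 genes ran between -8.86 (SE 2.38) for Ptgds and 7.35 (SE 3.72) for Ptgs2.

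The rest of the pathway was read from lists of 51 genes, of which 46 were tested. In resveratrol over obesity, edgeR's quasi-likelihood test with Benjamini-Hochberg adjustment called 0 of these 46 genes, and it called 0% of all tested genes. At an unadjusted p under 0.05 it took 1 pathway gene higher and 2 lower, against 2.34% of all tested genes in either direction, and DESeq2 called 1 lower, against 0.884% of all tested genes. The median log2 difference of the 46 genes was -0.03, beside 0.05 over all tested genes. The list of prostanoid receptors had 4 of 7 tested genes above 0 and 3 below, and the list of leukotriene enzymes 1 of 7 above and 6 below. Of all 24779 tested genes, 13075 were above 0 and 11172 below. Relative to the obesity mean, the leukotriene enzymes ran between 13.8% (Dpep2) and 80.3% (Dpep1) in resveratrol library 1. In resveratrol library 2 they ran between 80.4% (Mgst2) and 132% (Dpep1). Their low levels were thus mostly those of resveratrol library 1. Without resveratrol library 2, edgeR called 8 pathway genes higher and 13 lower of 45 tested, against 19.5% of all tested genes in either direction. Without resveratrol library 1 it called 1 lower of 46, against 0.136% of all tested genes.

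That gene was Pla2g5, which encodes a secreted phospholipase A2 of the heart and of fat. Its levels were 0.863 and 1.36 CPM in resveratrol libraries 1 and 2, 15.8 and 11.6 CPM in obesity libraries 1 and 2, and 63.6 CPM in the control library. Both resveratrol libraries were well below both obesity libraries, which were below the control library. On the log2 scale the difference was -3.61 (SE 0.41) for resveratrol over obesity, and it did not pass edgeR (adjusted p = 0.899) but passed DESeq2 (adjusted p = 1.44e-08). It was also called by edgeR with no filter on low counts. In that comparison edgeR called no pathway gene with median-ratio size factors, with the replicate block or with the control library left out.

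Other genes with the smallest p in that comparison are given as values. Ephx2, the soluble epoxide hydrolase that breaks down epoxy fatty acids, had 110.4 and 149.7 CPM in resveratrol libraries 1 and 2, 446 and 289.8 CPM in obesity libraries 1 and 2, and 37.9 CPM in the control library. Cbr1, a carbonyl reductase that acts on prostaglandin E2, had 151 and 47.8 CPM in the resveratrol libraries, 41.5 and 41.7 CPM in the obesity libraries, and 97.4 CPM in the control library. The groups did not overlap for either gene, and Cbr1 in resveratrol library 2 was near the obesity level.

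In obesity over control, edgeR again called 0 of the 46 pathway genes and 0% of all tested genes, with a smallest adjusted p of 0.0999 among all genes. At an unadjusted p under 0.05 it took 19 pathway genes higher and 4 lower, against 24.3% of all tested genes in either direction, and DESeq2 called 19 higher and 3 lower, against 18.3%. The median log2 difference was 1.497, beside -0.10 over all tested genes. All 7 leukotriene enzymes (Lta4h, Ltc4s, Mgst2, Mgst3, Ggt5, Dpep1 and Dpep2) were above 0 with a median of 3.31, and DESeq2 called all 7 higher. Of all 24779 tested genes, 11613 were above 0 and DESeq2 called 2681 higher. Ltc4s, which joins glutathione to leukotriene A4, had 21.4 and 148 CPM in resveratrol libraries 1 and 2, 132 and 139 CPM in obesity libraries 1 and 2, and 5.16 CPM in the control library. As for Alox5ap and the macrophage list, resveratrol library 1 and the control library were low. Ptger3, the prostaglandin E2 receptor gene of adipocytes, had 6.59 and 90.8 CPM in the resveratrol libraries, 52.4 and 74.9 CPM in the obesity libraries, and 0.244 CPM in the control library, beside the adipocyte list.

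The 3 genes with the smallest p in each direction differed widely in level. Higher in obesity than in the control library were Ephx2, with a log2 difference of 3.28 (SE 0.55), Mgst3, a glutathione transferase gene, with 3.31 (SE 0.58), and Pla2g2e, a secreted phospholipase gene, which was at a count of 0 in the control library. Pla2g2e had 1.32 and 9.45 CPM in resveratrol libraries 1 and 2 and 21.7 and 15.9 CPM in obesity libraries 1 and 2. For its count of 0 in the control library, the exact 95% Poisson interval reaches 0.129 CPM. Lower were Pla2g5, with a log2 difference of -2.22 (SE 0.43), Abcc4 with -1.45 (SE 0.39), and Tbxa2r with -2.67 (SE 0.87).

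In resveratrol over control, edgeR called 0 of the 46 pathway genes and 0% of all tested genes. At an unadjusted p under 0.05 it took 16 higher and 2 lower, against 18.5% of all tested genes, and DESeq2 called 13 higher and 2 lower, against 12.5%. The median log2 difference was 1.81, beside 0.05 over all tested genes. Pla2g2d, a secreted phospholipase gene of lymphoid tissue, had a log2 difference of 3.92 (SE 0.74), Mgst3 of 2.87 (SE 0.57) and Ptgir of 4.87 (SE 1.10). In the other direction, Pla2g5 had -5.83 (SE 0.48), Abcc4 -1.95 (SE 0.39) and Ptges3, a cytosolic prostaglandin E synthase and Hsp90 co-chaperone gene, -0.998 (SE 0.37). This comparison shares the control library with that of obesity over control.

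**Figure D4:**
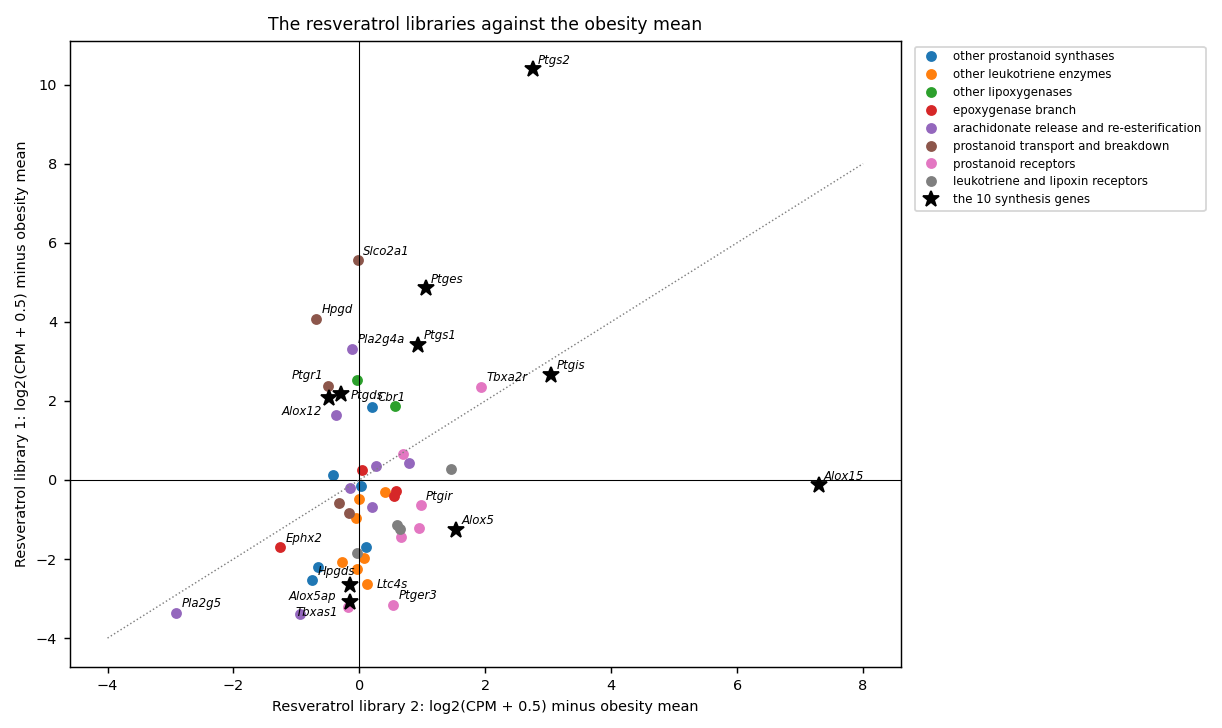
Each point is a gene with a mean of at least 1 CPM, placed by log2(CPM + 0.5) minus the obesity mean in resveratrol library 2 (horizontal) and resveratrol library 1 (vertical); stars are the 10 synthesis genes, colours the pathway lists, and the dotted line marks equal values. Many points spread along the vertical axis, such as Slco2a1 at 5.56 and -0.03 and Hpgd at 4.08 and -0.69 in resveratrol libraries 1 and 2, while Pla2g5 (-3.36 and -2.91), Tbxa2r (2.36 and 1.94) and Ptgis (2.66 and 3.04) lie near the line.

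For the 3 genes with the widest range over the libraries, the genes with the most similar pattern were sought among 13915 genes, by the root mean square difference of centred log2(CPM + 0.5) over the 5 libraries. Nearest to Ptgs2 were Mybpc1, a slow-muscle myosin-binding protein gene, at 1.02, Kcnc1, a potassium channel gene, at 1.05, and Crygc, a lens crystallin gene, at 1.14. Mybpc1 had 350.4 and 0.0778 CPM in resveratrol libraries 1 and 2, 0.0522 and 0.0952 CPM in obesity libraries 1 and 2, and 1.15 CPM in the control library. Nearest to Ptgds were Defb47, a beta-defensin gene, at 0.363, Wfdc10 at 0.435 and Cldn2, a tight-junction claudin gene, at 0.510. Defb47 had 1.82 CPM and a count of 0 in resveratrol libraries 1 and 2, 0.470 CPM and a count of 0 in obesity libraries 1 and 2, and 994 CPM in the control library. Nearest to Alox15 were Serpinb2, a plasminogen activator inhibitor gene, at 1.07, F5, coagulation factor V, at 1.17, and the mesothelial marker Msln at 1.19. F5 had 0.4997 and 38.1 CPM in the resveratrol libraries, 0.417 and 0.333 CPM in the obesity libraries, and 2.44 CPM in the control library. Each of these patterns is set by 1 high library.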

How the data were processed

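Messenger RNA of visceral adipose tissue was sequenced from stranded poly-A libraries, per the labels' protocols. The authors deposited unnormalised counts per gene; featureCounts, FastQC and build GRCm39 are named in the submitters' processing notes. Not given in the sources used here are the aligner, the annotation release and the strand setting. Symbols were assigned to 65.7% of the 78334 identifiers.

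Genes were kept by filterByExpr (minimum count 10, minimum total 15), scaled by TMM and fitted on all 5 libraries with edgeR 4.0.16 robust quasi-likelihood in R 4.3.3, adjusted by Benjamini-Hochberg at 0.05. The single control library takes its spread from the replicated groups. DESeq2 1.42.0, other scaling, no filter, a replicate block and left-out libraries were alternatives. The 10 genes, the lists and the naming rule were chosen with earlier results of these data known. The rule named all 10 genes, 3 pathway genes per direction with the smallest p and a mean of at least 1 CPM, and Hpgds, Ltc4s, Hpgd, Ptger3, Ptgir and Pla2g4a. Slco2a1, Ptgr1, Ptgr2, Alox12e, marker genes and genes named only as members of a list fall outside it. Sequences are from RefSeq on GRCm38.p6. Intervals and the floor of 3 counts per library, 0.105 to 0.157 CPM, cover counting error only. Plots used matplotlib 3.10.9 under Python 3.11.15.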

Additional observations from a re-analysis of the deposited data

How the results depend on the processing

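Counts of called genes depended on the test and on single libraries. In obesity over control, DESeq2 called 4524 genes and 22 pathway genes, and edgeR with no filter on low counts called 2575 and 13, against 0 and 0. In resveratrol over obesity these were 219 and 1 with DESeq2 and 25 and 1 with no filter, against 0 and 0. In resveratrol over control they were 3085 and 15 with DESeq2 and 1671 and 11 with no filter, against 0 and 0. Leaving out 1 library at a time gave 0 to 9227 genes and 0 to 33 pathway genes in obesity over control, 0 to 4758 and 0 to 21 in resveratrol over obesity, and 0 to 7469 and 0 to 32 in resveratrol over control. The counts above 0 came from leaving out resveratrol library 1 (9227, 33 and 7469 genes) or resveratrol library 2 (9094, 4758 and 4199 genes). Leaving out the control library and resveratrol library 1 together, chosen after seeing the data, gave 66 genes and 1 pathway gene in resveratrol over obesity. Median-ratio size factors and the fit with a replicate block left every count at 0. The replicate numbers are only numbers in the labels: deviations of same-numbered libraries correlated at r = 0.299 across 24779 genes, with 2 pairs, so they were not taken as pairs.

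The log2 differences of the 10 genes kept their sign under DESeq2, median-ratio size factors and CPM on total counts. Without resveratrol library 1, Ptgds was -1.24 and Alox12 -0.80 in resveratrol over obesity, and Ptgs1 -0.92 and Alox5 0.49 in resveratrol over control, each with the other sign. Without resveratrol library 2, Alox5 was -1.58 and Alox15 -0.48 in resveratrol over obesity, and Alox15 -0.50 in resveratrol over control. Ptges was 0.37 in obesity over control under the replicate block, and Alox15, near 0 in that comparison, was 0.73 without obesity library 1. Scaling on total counts moved the median log2 difference of all genes by -0.12 in obesity over control. Low counts limit Ptgs2, Ptgds and Alox15 in the obesity libraries, where they had 18 counts or fewer. The cause of these changes was not tested.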
